A study of Mus musculus with 32 samples.

Results

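The necroptosis machinery was followed as 10 genes, namely Ripk1, Ripk3, Mlkl, Zbp1, Casp8, Cflar, Fadd, Tradd, Cyld and Birc3. They were found by their gene name among the probes of the arrays, and all 10 were among the 16037 genes tested. The 10 genes were measured by 16 probes, 15 of which were above background on all 32 arrays. RNA came from macrophages grown out of bone marrow (BMDMs) of WT or Ifnar1-/- mice, the latter lacking 1 chain of the receptor for type I interferon in every cell. In each genotype, cells were left untreated or received LPS or IFNβ for 6 h, each of the 3 conditions without or with zVAD, and the stimulus with zVAD also with Nec-1 added, so that 8 treatments give 16 groups of 2 arrays. LPS, a bacterial ligand of the receptor TLR4, was used at 100 ng/mL per the sample labels, which put IFNβ at 1000 U/mL, while the study's text states other doses. zVAD is a pan-caspase inhibitor, and Nec-1 blocks RipK1 as a kinase. The labels do not say whether the arrays of a group came from separate mice or cultures, so the p-values measure the spread between these samples, and 2 arrays per group limit the precision of every value.

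Necroptosis is a lytic form of cell death that follows when caspase-8 is inactive. Receptors for TNF and the TLRs can act through the kinases RipK1 and RipK3, and the nucleic acid sensor Zbp1 can recruit RipK3. RipK3 then phosphorylates Mlkl, which breaches the plasma membrane. Caspase-8, held by the adaptor Fadd and paired with cFLIP (the product of Cflar), cleaves the kinases and so restrains this death. In macrophages several of these genes respond to interferon or to NF-κB, and ubiquitin chains placed on RipK1 by Birc3 and removed by Cyld decide how RipK1 acts at the TNF receptor.

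The start regions of the genes were searched for letters of the interferon-stimulated response element (GAAA, then 2 or 3 bases of any kind, then GAAA, 2 spellings that can overlap) and of the NF-κB site (GGGA, any base, TTTCC), on both strands. RefSeq windows of the GRCm38.p6 assembly, from 250 bases before to 50 bases after each start, were at hand for 8 of the 10 members, not for Zbp1 or Tradd. The spelling with 2 free bases is in 3.44% of the 32851 windows of all genes, that with 3 in 2.75% and the NF-κB letters in 0.411%. The windows of 4 members hold a match. They are shown up to 20 bases past the start, with the match in capitals. Casp8 and Cflar are shown because they responded to IFNβ in WT cells, and Ripk1 because it responded to zVAD on top of LPS. Cyld is shown because its brighter probe fell with LPS. Mlkl is shown with them as a member that responded to IFNβ and has no match in its window. Ripk1 has a second window that starts further upstream and holds no match.
Casp8 (chr1:58802252-58802521, + strand): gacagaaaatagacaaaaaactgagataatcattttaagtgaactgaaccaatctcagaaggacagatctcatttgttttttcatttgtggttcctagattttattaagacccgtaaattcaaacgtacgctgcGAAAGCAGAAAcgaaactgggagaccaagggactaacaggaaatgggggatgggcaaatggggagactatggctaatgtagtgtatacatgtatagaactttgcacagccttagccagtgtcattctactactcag
Cflar (chr1:58711241-58711510, + strand): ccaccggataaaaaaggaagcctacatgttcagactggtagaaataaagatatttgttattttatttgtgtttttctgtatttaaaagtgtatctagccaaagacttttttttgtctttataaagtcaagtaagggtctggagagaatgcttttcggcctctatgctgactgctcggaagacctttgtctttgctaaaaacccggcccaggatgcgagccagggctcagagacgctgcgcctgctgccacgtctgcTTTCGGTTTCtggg
Ripk1 (chr13:34002624-34002893, + strand): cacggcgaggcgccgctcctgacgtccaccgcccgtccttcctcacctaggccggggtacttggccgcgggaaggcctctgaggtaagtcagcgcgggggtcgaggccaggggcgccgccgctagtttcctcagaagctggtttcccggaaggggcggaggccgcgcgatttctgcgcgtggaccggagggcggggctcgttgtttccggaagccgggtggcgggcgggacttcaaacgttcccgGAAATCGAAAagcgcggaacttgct
Cyld (chr8:88696778-88697047, + strand): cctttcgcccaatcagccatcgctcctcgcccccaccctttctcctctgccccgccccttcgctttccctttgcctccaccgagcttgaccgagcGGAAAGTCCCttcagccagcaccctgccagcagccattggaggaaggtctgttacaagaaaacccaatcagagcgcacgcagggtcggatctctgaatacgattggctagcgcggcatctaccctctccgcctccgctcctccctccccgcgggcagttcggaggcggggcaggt
Mlkl (chr8:111338186-111338455, - strand): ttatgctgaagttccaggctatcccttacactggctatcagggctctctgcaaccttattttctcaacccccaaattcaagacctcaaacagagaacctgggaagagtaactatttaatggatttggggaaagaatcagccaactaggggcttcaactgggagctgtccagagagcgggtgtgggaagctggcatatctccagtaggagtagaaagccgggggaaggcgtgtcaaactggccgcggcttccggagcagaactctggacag
In Casp8 the match, with 3 free bases, runs from base -116 to base -106 relative to the start. In Cflar it is on the opposite strand, from base 7 to base 16 after the start. In Ripk1 it crosses the start, and in Cyld the NF-κB letters lie on the opposite strand, from base -155 to base -146. A match describes the letters of the window and does not show a site in use, and a window without a match says nothing of sites elsewhere.

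The targeted gene and the cells were checked first. Ifnar1 is measured by 3 probes, and in untreated cells all of them were lower in Ifnar1-/- BMDMs, by 1.65 to 2.33 on the log2 scale, with the brightest probe at 14.22 and 14.19 in WT and at 11.89 and 11.87 in Ifnar1-/- cells. Whether these probes lie in the deleted part is not known here, and the brightest of them did not differ after LPS+zVAD (log2 fold change -0.12, adjusted p = 0.909), where the other two were lower by 1.93 and 1.30. Of 12 interferon-stimulated genes used as a check, 10 were higher with IFNβ in WT BMDMs and 0 in Ifnar1-/- BMDMs. Csf1r, Cd68 and Emr1, which mark macrophages, were above background on all 32 arrays. Markers of other cells were detected in part. Of the fibroblast markers, Col1a1, Col1a2 and Col3a1 were above background on all 32 arrays and Pdgfra on 0, and of the T cell markers Cd3e and Lck on all 32, Cd3d on 4 and Cd3g on 3. The neutrophil markers Elane, Mpo, Camp and Ngp and the B cell markers Cd79a and Cd79b were above background on all 32 as well. The summed level of 4 fibroblast markers was 9.09 to 10.08 log2 in untreated WT and 11.37 to 12.59 in untreated Ifnar1-/- BMDMs, and its part in the differences between genotypes was not tested. The arrays had 54.9% to 78.1% of probes above background in WT and 44.5% to 61.6% in Ifnar1-/- cells. Each slide holds the 8 treatments of 1 genotype, so within 1 treatment the genotype and the slide cannot be told apart. The 2 arrays of Ifnar1-/- LPS+zVAD+Nec-1 stood apart from each other, with a Pearson correlation of 0.947 across genes against 0.973 or more in the other groups. Among the members, Zbp1 was at 10.31 and 7.28 on these arrays and Cflar at 13.05 and 10.61, so that replicate 2 lay near the untreated Ifnar1-/- cells in both genes. The group enters no comparison, but it adds to the pooled spread, and the calls that leaving it out adds are named beside the results.

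**Figure D1:**
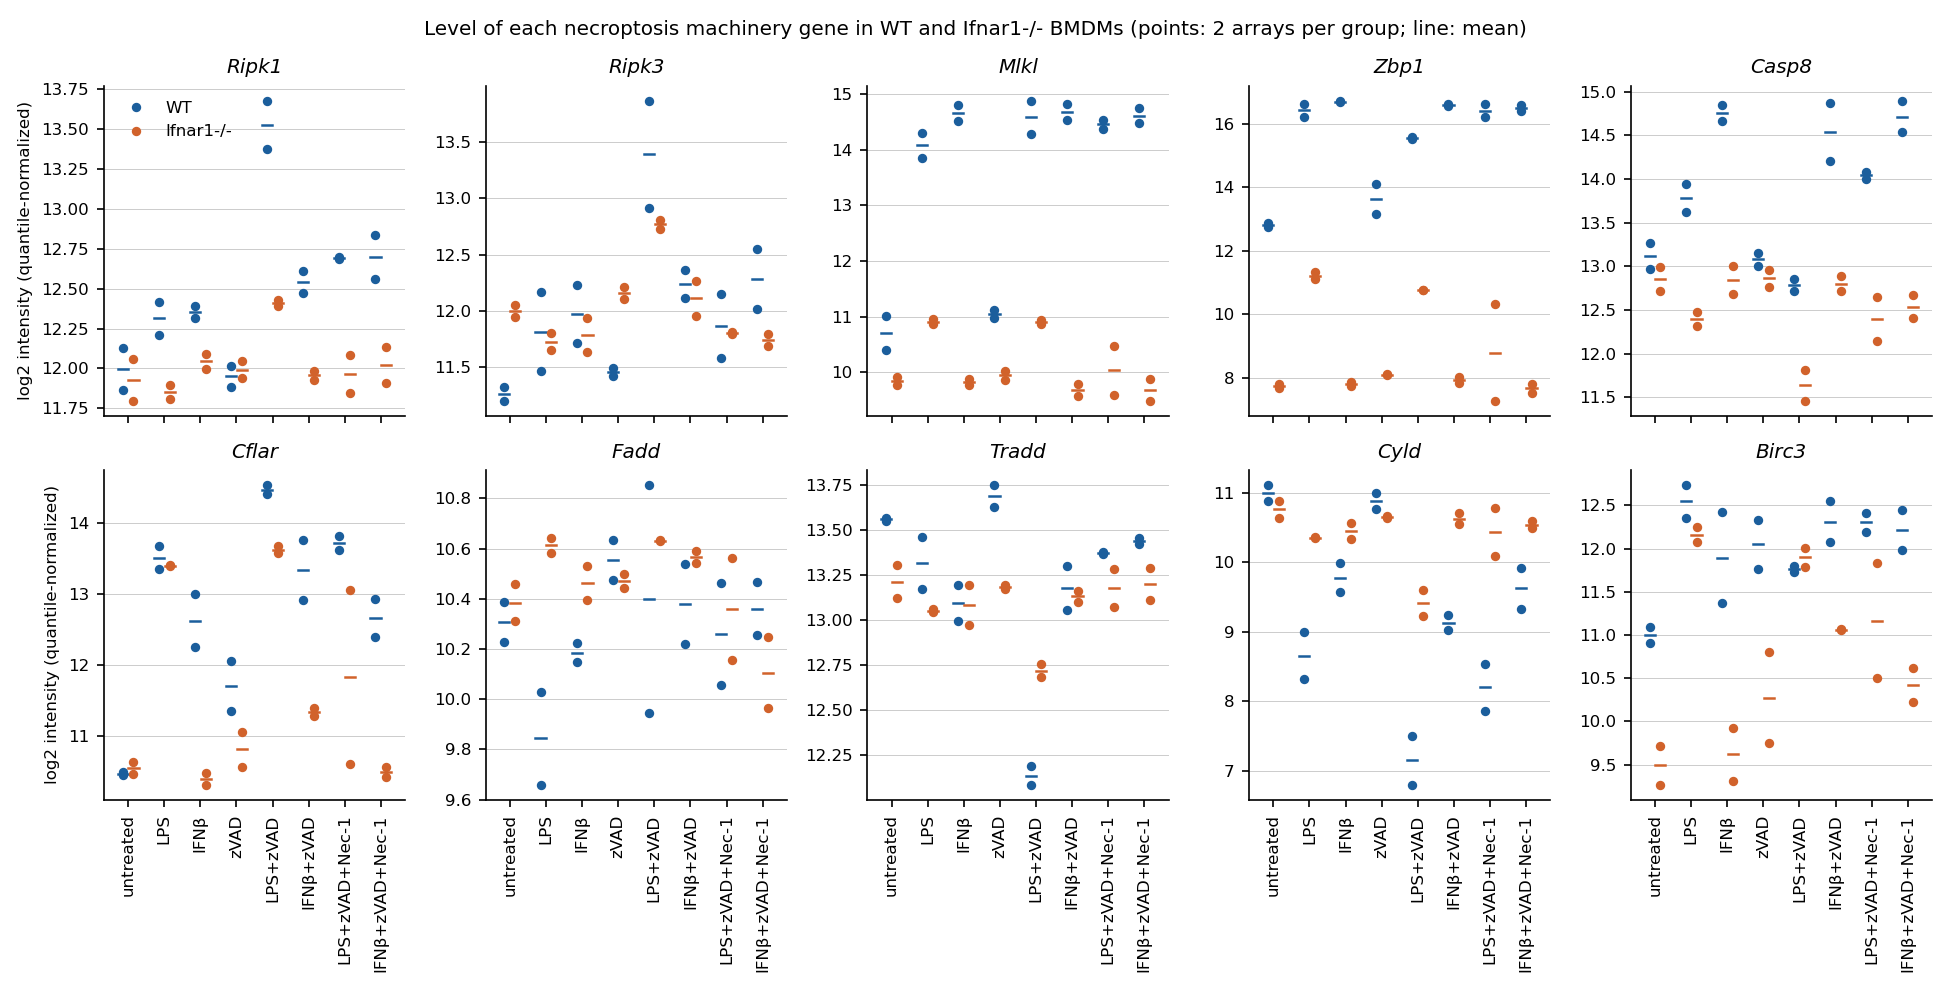
Log2 intensity (quantile-normalized, y axis) of the brightest probe of each member in the 8 treatments (x axis) for WT (blue) and Ifnar1-/- (orange) BMDMs. Points are the 2 arrays of a group and lines their mean, and each panel has its own scale. Both WT arrays lie above both Ifnar1-/- arrays for Mlkl and Zbp1 in all 8 treatments, and in WT LPS+zVAD Ripk1 and Ripk3 are at their highest and Tradd and Cyld at their lowest.

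In WT BMDMs, LPS and IFNβ raised the effector Mlkl, the sensor Zbp1, Casp8 and its partner Cflar. The kinase genes Ripk1 and Ripk3 did not pass the test in the fit of the groups alone, which leaves the slide out. With the slide as a block, Ripk1 passed with both stimuli and Ripk3 with IFNβ. With LPS, Mlkl, Zbp1, Casp8, Cflar and Birc3 were higher and Cyld was lower, which is 5 members up and 1 down where 16.3% of all genes were higher and 24.8% lower. With IFNβ, Mlkl, Zbp1, Casp8 and Cflar were higher and Cyld and Tradd were lower, 4 up and 2 down against 13.7% and 21.6% of all genes. The median log2 fold change of the members was 0.61 with LPS and 0.80 with IFNβ, where that of all genes was -0.08 and -0.17. Both comparisons use the same untreated arrays. With arrays aligned on their 75th percentile and no quantile normalization, the median of all genes moved to 0.08 with LPS and -0.02 with IFNβ, and the share of higher genes among those called went from 39.6% to 50.2% and from 38.8% to 50.1%. In bulk RNA, fewer cells that express a gene and less RNA per cell cannot be told apart. The summed level of 4 T cell markers also moved. It was 10.39 to 11.27 in untreated WT, 12.56 to 12.76 with LPS and 12.94 to 14.15 with IFNβ. Of these markers Lck ranged from 7.24 to 13.95 over all arrays and Cd3e from 10.00 to 11.87. Cd3d was above background on 4 arrays and Cd3g on 3. The part of this sum in the results was not tested.

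Mlkl, the pseudokinase that ruptures the membrane, has its probe at 113835700 to 113835759 of chromosome 8 (mm9). Its log2 intensity was 11.01 and 10.41 in untreated WT BMDMs, 14.31 and 13.85 with LPS, and 14.80 and 14.52 with IFNβ. The stimulated arrays all lay above the untreated ones by more than the spread within a group. Mlkl rose 10.35-fold with LPS (log2 fold change 3.37, standard error 0.27, adjusted p = 5.66e-08 from limma) and 15.5-fold with IFNβ (3.95, adjusted p = 4.63e-09). Neither call was lost in any alternative or with any array left out. Without the receptor, Mlkl was at 9.77 and 9.91 untreated, 10.86 and 10.96 with LPS, and 9.77 and 9.88 with IFNβ. It rose 2.10-fold with LPS (adjusted p = 0.00649), a call that was lost without Ifnar1-/- untreated replicate 1 (log2 fold change 1.004, adjusted p = 0.0531, where other alternatives went down to 0.00153). With IFNβ its log2 fold change was -0.02 (95% confidence interval -0.58 to 0.55). The difference between the genotypes' changes was itself called, at -2.30 log2 for LPS (adjusted p = 0.000994) and -3.97 for IFNβ (adjusted p = 1.42e-06).

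Zbp1, the sensor of Z-form nucleic acids that can recruit RipK3, has 2 probes on chromosome 2 of mm9, and the brighter one (173039307 to 173039366) was used. It was at 12.87 and 12.75 in untreated WT BMDMs, 16.22 and 16.63 with LPS, and 16.68 and 16.71 with IFNβ. The Ifnar1-/- arrays were at 7.80 and 7.69 untreated, 11.11 and 11.32 with LPS, and 7.87 and 7.75 with IFNβ. Every WT array, untreated ones included, was above every Ifnar1-/- array for this gene. Zbp1 rose 12.2-fold with LPS in WT (log2 fold change 3.61, standard error 0.55, adjusted p = 4.01e-05) and 11.1-fold in Ifnar1-/- cells (3.47, adjusted p = 0.000214). The difference between these changes was -0.14 log2, with a 95% confidence interval from -1.76 to 1.48. With IFNβ it rose 14.8-fold in WT (adjusted p = 2.18e-05) and had a log2 fold change of 0.06 in Ifnar1-/- cells (95% confidence interval -1.08 to 1.21), a difference of -3.82 (adjusted p = 0.00183). The dimmer probe, above background on 24 of 32 arrays, gave 3.67 with LPS and 5.04 with IFNβ in WT cells, both called.

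The kinases moved less. Ripk1, the kinase and scaffold that Nec-1 inhibits, is measured on chromosome 13 of mm9, from 34125152 to 34125211. It was at 12.13 and 11.86 in untreated WT cells, 12.42 and 12.21 with LPS, and 12.39 and 12.31 with IFNβ. Its log2 fold change was 0.32 with LPS (adjusted p = 0.118) and 0.36 with IFNβ (adjusted p = 0.0884). With the slide as a block, both passed (adjusted p = 0.0385 and 0.0241, where the alternatives reached 0.539 and 0.457), and the value for LPS also passed under the 75th percentile shift (0.58, adjusted p = 0.0488). Ripk3, which phosphorylates Mlkl, is measured on chromosome 14, from 56403949 to 56404008. It was at 11.21 and 11.33 untreated, 11.47 and 12.17 with LPS, and 12.23 and 11.72 with IFNβ. The log2 fold change was 0.55 with LPS (adjusted p = 0.133) and 0.71 with IFNβ (adjusted p = 0.0594). All 4 stimulated arrays lay above both untreated ones, but the arrays within a stimulated group were far apart. The value for IFNβ passed in 4 of 14 alternatives. It passed with the slide as a block (adjusted p = 0.0429, with 0.0394 to 0.374 over all alternatives), with normexp background correction and with the mean-variance trend. It also passed without WT IFNβ replicate 2 (log2 fold change 0.96), and the value for LPS passed without WT LPS replicate 1 (0.90, adjusted p = 0.0447, in a range up to 0.665). In Ifnar1-/- BMDMs neither kinase passed with LPS, at -0.07 for Ripk1 and -0.27 for Ripk3.

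Among the brakes on necroptosis, Casp8, the protease that cleaves RipK1 and RipK3, is measured on chromosome 1 of mm9, from 58901601 to 58901660. It was at 12.97 and 13.26 in untreated WT BMDMs, 13.95 and 13.62 with LPS, and 14.85 and 14.66 with IFNβ. IFNβ raised it 3.12-fold (log2 fold change 1.64, standard error 0.23, adjusted p = 2.03e-05), in every alternative. LPS raised it 1.59-fold (0.67, adjusted p = 0.0251), which was lost in 5 of 14 alternatives, among them without WT untreated replicate 1 (0.52) and without WT LPS replicate 1 (0.51, adjusted p = 0.196, the highest of a range from 0.00241). The shift to a common 75th percentile gave 1.14 log2. In the direct comparison of LPS with IFNβ, 0 members were higher and 2 lower with LPS, where 9.14% and 11.1% of all genes were, and Casp8 was one of them at -0.97 log2 (adjusted p = 0.00509). Cflar, at 0.88 higher with LPS (adjusted p = 0.239), passed when the group Ifnar1-/- LPS+zVAD+Nec-1 was left out (adjusted p = 0.0312, in a range up to 0.658). The call of Casp8 was lost without WT LPS replicate 2 (-0.81) and without WT IFNβ replicate 1 (-0.88), with an adjusted p of 0.000304 to 0.121 over the alternatives. Casp8 in Ifnar1-/- BMDMs was at 12.71 and 12.998 untreated, 12.32 and 12.47 with LPS, and 12.68 and 13.01 with IFNβ. Its change with LPS was -0.46 log2 (adjusted p = 0.165, and 0.0384 with the slide as a block, in a range up to 0.667), so that it lay on the other side of 0 from that in WT cells. The difference between the genotypes' changes was -1.13 for LPS (adjusted p = 0.042) and -1.65 for IFNβ (adjusted p = 0.00144). The former was lost in 11 of 18 alternatives, among them the fits without any 1 of the 8 arrays except WT LPS replicate 2, with values from -0.97 to -1.36 and an adjusted p of 0.00389 to 0.201.

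Cflar, which encodes the caspase-8 partner cFLIP, has 4 probes on chromosome 1 of mm9, and the brightest (58811116 to 58811175) was used. It was at 10.46 and 10.49 in untreated WT BMDMs, 13.67 and 13.35 with LPS, and 12.25 and 13.01 with IFNβ. It rose 8.20-fold with LPS (log2 fold change 3.04, standard error 0.49, adjusted p = 7.6e-05) and 4.45-fold with IFNβ (2.15, adjusted p = 0.00204). In Ifnar1-/- cells it was at 10.64 and 10.47 untreated, 13.41 and 13.39 with LPS, and 10.32 and 10.49 with IFNβ. The rise with LPS there was 7.19-fold (adjusted p = 0.00042), and the difference from WT was -0.19 log2 (95% confidence interval -1.64 to 1.26). For IFNβ the difference was -2.31 (adjusted p = 0.0254), lost in 8 of 18 alternatives, among them the fits without any 1 of the 8 arrays except WT IFNβ replicate 1 (-1.93 without WT IFNβ replicate 2, adjusted p = 0.102, the highest of a range from 0.000483). The probes differed in size with LPS, from 1.22 log2 at 58770546 to 58770605 to 4.96 at 58789994 to 58790053, and all 4 were called in both genotypes. With IFNβ in WT cells 3 of the 4 were called, and the one at 58770546 had 0.65 (adjusted p = 0.26). The difference between the genotypes' changes with IFNβ was called for 2 of the 4 probes, and was -2.99 (adjusted p = 0.0608) and -0.75 (adjusted p = 0.436) for those at 58789994 and 58770546. Fadd, the adaptor that binds caspase-8, is measured on chromosome 7, from 151764228 to 151764267, and varied least of the 10 members. It was at 10.39 and 10.23 untreated, 9.66 and 10.03 with LPS, and 10.15 and 10.22 with IFNβ. Its log2 fold change with LPS was -0.47 (adjusted p = 0.123, and 0.0453 with the slide as a block, in a range up to 0.523).

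At the TNF receptor complex, Birc3 and Cyld act on the ubiquitin chains of RipK1 in opposite ways. With LPS in WT cells Birc3 rose and the brighter of the 2 probes of Cyld fell. The dimmer probe of Cyld did not pass with LPS (log2 fold change -0.23, adjusted p = 0.445) and rose with IFNβ (0.62, adjusted p = 0.0362). Birc3, a ubiquitin ligase, has 2 probes on chromosome 9 of mm9, and the brighter one (7854409 to 7854468) was at 10.91 and 11.10 in untreated WT cells, 12.74 and 12.36 with LPS, and 11.37 and 12.42 with IFNβ. It rose 2.91-fold with LPS (log2 fold change 1.54, standard error 0.41, adjusted p = 0.00508), a call lost without WT LPS replicate 1 (1.35, adjusted p = 0.0532, the highest of a range from 0.00162). With IFNβ its log2 fold change was 0.89 (adjusted p = 0.1), and 1.42 without WT IFNβ replicate 1 (adjusted p = 0.0326, in a range up to 0.622). Birc3 in Ifnar1-/- BMDMs went from 9.27 and 9.71 to 12.07 and 12.25 with LPS, a 6.37-fold rise (adjusted p = 0.00017). The difference from the change in WT was 1.13 log2 (95% confidence interval -0.08 to 2.34, adjusted p = 0.301).

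Cyld, a deubiquitinase, has 2 probes on chromosome 8 of mm9, and they disagreed. The brighter one, from 91275781 to 91275840, was at 10.89 and 11.12 in untreated WT cells, 8.32 and 8.996 with LPS, and 9.58 and 9.99 with IFNβ. It fell by 2.35 on the log2 scale with LPS (standard error 0.30, adjusted p = 6.58e-06) and by 1.22 with IFNβ (adjusted p = 0.00346). The other probe, from 91229427 to 91229486, was at 8.76 and 8.63 untreated, 8.32 and 8.60 with LPS, and 9.18 and 9.45 with IFNβ. Its log2 fold change was -0.23 with LPS (adjusted p = 0.445), and with IFNβ it rose by 0.62 (adjusted p = 0.0362), so that the probes went opposite ways with IFNβ. With the mean of both probes the fall with LPS was -1.29 log2, and that with IFNβ -0.30 (adjusted p = 0.337, the highest of a range from 0.000851). Without WT IFNβ replicate 1 the brighter probe's fall with IFNβ was -1.01 and had an adjusted p of 0.05. LPS lowered this probe more than IFNβ did, by 1.13 log2 (adjusted p = 0.0106), which was lost without WT LPS replicate 1 (-0.79) and without WT IFNβ replicate 2 (-0.92), with an adjusted p of 0.00273 to 0.157 over the alternatives. The dimmer probe was lower with LPS than with IFNβ as well, by 0.86 (adjusted p = 0.0099). The brighter probe in Ifnar1-/- BMDMs was at 10.89 and 10.64 untreated and at 10.36 and 10.36 with LPS (log2 fold change -0.41, adjusted p = 0.377). The difference from WT was 1.94 log2 (adjusted p = 0.00789), with 1.22 for the mean of both probes, and it was lost without WT LPS replicate 1 (1.60, adjusted p = 0.0606, the highest of a range from 0.00176). For LPS the dimmer probe had a difference between the genotypes' changes of 0.50 (adjusted p = 0.442). For IFNβ this difference was 0.90 for the brighter probe (adjusted p = 0.148) and -0.92 for the dimmer one (adjusted p = 0.0489).

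Tradd, the adaptor that links the TNF receptor to RipK1, is measured on chromosome 8 of mm9, from 107782475 to 107782531. It was at 13.57 and 13.55 in untreated WT cells, 13.17 and 13.46 with LPS, and 13.20 and 12.99 with IFNβ. It was 1.38-fold lower with IFNβ (log2 fold change -0.46, adjusted p = 0.0174). This was lost in 6 of 14 alternatives, with -0.12 under the 75th percentile shift, -0.455 without WT untreated replicate 1, -0.47 without WT untreated replicate 2 and -0.36 without WT IFNβ replicate 2, and with an adjusted p of 0.00362 to 0.762.

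In Ifnar1-/- BMDMs, 4 members were higher with LPS (Mlkl, Zbp1, Cflar and Birc3) and 0 were lower, where 10.9% and 13.9% of all genes were. With IFNβ, limma called 0 members and 0% of all genes, and 0 members and 253 genes had an unadjusted p under 0.05. Tested as a difference between the genotypes' changes, the log2 fold change with LPS was more positive in Ifnar1-/- cells for 1 member, Cyld. It was less positive for 2, Mlkl and Casp8, where 3.03% of all genes were more and 3.6% less positive. For Cyld this means a smaller fall by the brighter probe, at -0.41 in Ifnar1-/- against -2.35 in WT BMDMs. With IFNβ the log2 fold change was less positive in Ifnar1-/- cells for 4 members, Mlkl, Zbp1, Casp8 and Cflar. It was more positive for 0, where 8.54% of all genes were less and 10.3% more positive. Under the 75th percentile shift the median difference for IFNβ over all genes went from 0.16 to 0.009 and the share of positive ones among those called from 54.6% to 40.9%. Zbp1 and Cflar thus passed the test of the difference for IFNβ and not for LPS. This contrast of changes cancels a shift that is common to all arrays of a slide.

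**Figure D2:**
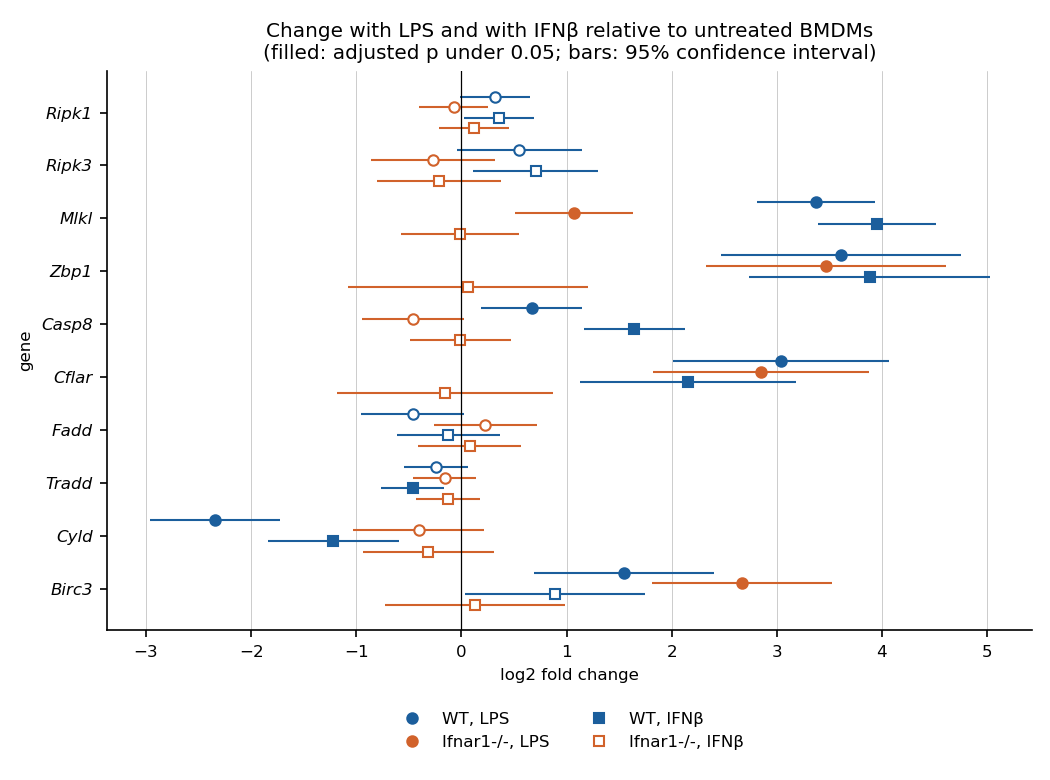
Log2 fold change (x axis) of each member (y axis) with LPS (circles) and with IFNβ (squares) relative to untreated BMDMs of the same genotype, WT in blue and Ifnar1-/- in orange. Bars are 95% confidence intervals from the limma fit and filled symbols have an adjusted p under 0.05. No Ifnar1-/- square is filled, while the circles of Zbp1 and Cflar lie side by side in both genotypes.

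**Figure D3:**
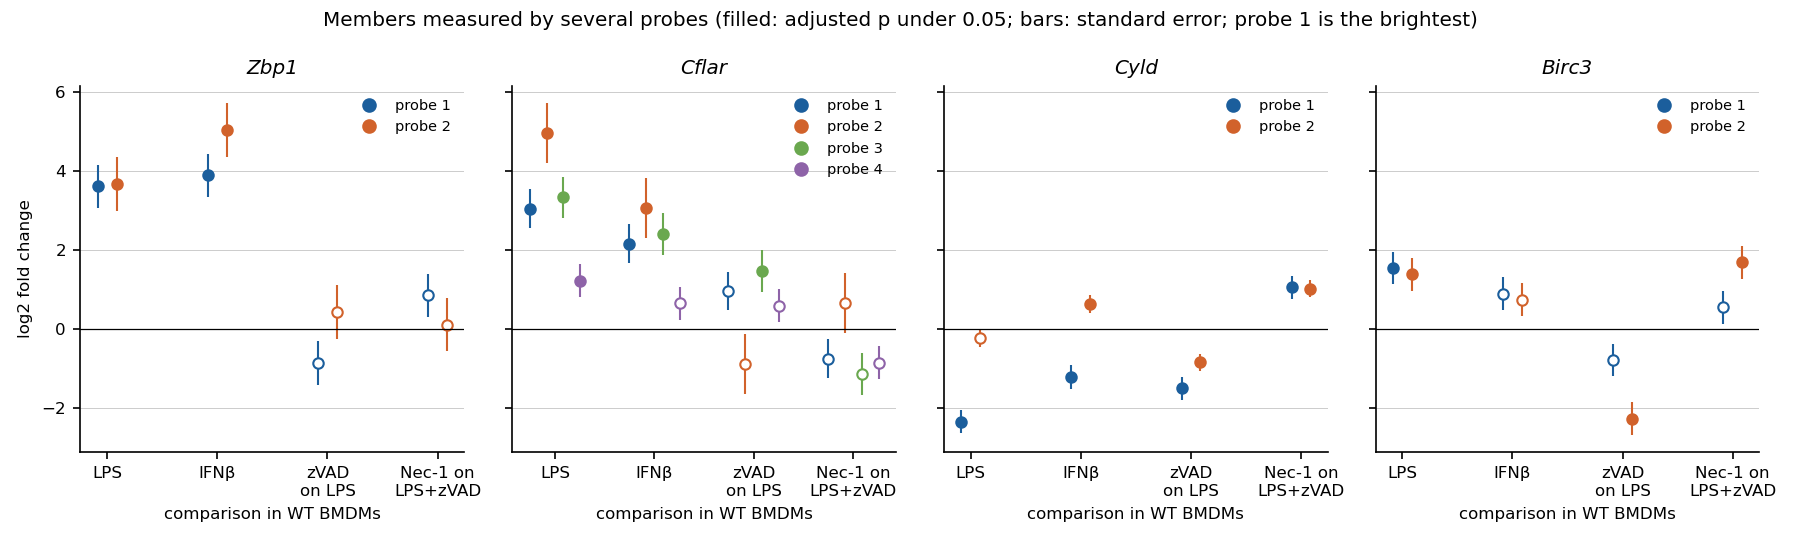
Log2 fold change (y axis, bars are standard errors) of each probe of the 4 members with several probes in 4 comparisons within WT BMDMs (x axis), with probe 1 the brightest of its gene. The probes of Cyld lie at -1.22 and 0.62 with IFNβ, and those of Birc3 at -0.78 and -2.27 when zVAD is added to LPS.

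zVAD alone changed 0 members in WT BMDMs, where limma called 0.00624% of all genes (1 gene) and 901 genes had an unadjusted p under 0.05. Of the members, 2 had an unadjusted p under 0.05. Cflar was at 11.35 and 12.05 with zVAD (log2 fold change 1.23, unadjusted p = 0.0218, adjusted p = 0.75), and Birc3 was at 11.77 and 12.34 (1.05, unadjusted p = 0.0192, adjusted p = 0.726). In Ifnar1-/- cells zVAD alone also changed 0 members and 0% of all genes, with 61 genes and 0 members at an unadjusted p under 0.05. Adding zVAD to IFNβ in WT cells changed 0 members and 0% of all genes, with 637 genes and 1 member, Cyld, at an unadjusted p under 0.05 (log2 fold change -0.65, unadjusted p = 0.042). Adding Nec-1 to IFNβ+zVAD changed 0 members and 0% of all genes as well, with 613 genes and 0 members at that level. Mlkl, for instance, was at 14.82 and 14.54 with IFNβ+zVAD and at 14.75 and 14.47 with IFNβ+zVAD+Nec-1, where IFNβ alone had 14.80 and 14.52.

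Adding zVAD to LPS in WT BMDMs raised both kinase genes. Ripk1 and Ripk3 were higher and Casp8, Cyld and Tradd were lower, 2 members up and 3 down, where 12.9% of all genes were higher and 21.7% lower. Ripk1 was at 12.42 and 12.21 with LPS and at 13.37 and 13.67 with LPS+zVAD, a 2.31-fold rise (log2 fold change 1.21, standard error 0.16, adjusted p = 1.18e-05). Its level in WT LPS+zVAD was the highest of its 16 groups and did not overlap with the next. Ripk3 went from 11.47 and 12.17 to 12.92 and 13.86, a 2.98-fold rise (1.57, standard error 0.28, adjusted p = 0.000269), with the widest pair of arrays of any group for this gene. Casp8 went from 13.95 and 13.62 to 12.86 and 12.72, a fall by 0.997 log2 (adjusted p = 0.00218) to below the untreated arrays. Tradd fell from 13.17 and 13.46 to 12.19 and 12.09, by 1.18 log2 (standard error 0.15, adjusted p = 6.05e-06), the lowest level among its groups. The brighter probe of Cyld fell from 8.32 and 8.996 to 7.50 and 6.80, by 1.51 log2 (adjusted p = 0.000597), and here the dimmer probe fell as well, by 0.85 (adjusted p = 0.00581).

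The other members did not pass in this comparison. Mlkl was at 14.29 and 14.88 with LPS+zVAD (log2 fold change 0.50 relative to LPS, adjusted p = 0.165). Cflar, at 14.41 and 14.54, had 0.96 (adjusted p = 0.146) and Zbp1, at 15.60 and 15.52, had -0.86 (adjusted p = 0.253). Both passed when the Ifnar1-/- LPS+zVAD+Nec-1 arrays were left out of the fit (adjusted p = 0.013 and 0.00566, where the alternatives reached 0.493 and 0.825). The other probes did not all go the same way. For Cflar, the probe at 58810660 to 58810719 rose by 1.46 (adjusted p = 0.0381), and that at 58789994 had -0.88 (adjusted p = 0.421). For Zbp1 the dimmer probe had 0.43 (adjusted p = 0.692). Fadd, at 9.95 and 10.85, had 0.56 (adjusted p = 0.0737) and passed with the slide as a block (adjusted p = 0.0213) and without WT LPS+zVAD replicate 1 (1.01, adjusted p = 0.00188, in a range up to 0.798). The brighter probe of Birc3 had -0.78 (adjusted p = 0.156), while the other probe (7856162 to 7856221) went from 9.68 and 9.63 to 7.31 and 7.46, a fall by 2.27 log2 (adjusted p = 0.000341). A fit of only the 4 arrays compared gave the same direction for all 5 called members and called none of them, with adjusted p from 0.0583 to 0.0851, and it called 10.7% of all genes in place of 34.6%.

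Adding Nec-1 to LPS+zVAD, a comparison that shares the LPS+zVAD arrays with the previous one, raised Casp8, Cyld and Tradd and lowered Ripk1 and Ripk3. These are 3 members up and 2 down, where 18.7% of all genes were higher and 9.78% lower. Ripk1 was at 12.69 and 12.70 with LPS+zVAD+Nec-1, 1.78-fold below LPS+zVAD (log2 fold change -0.83, adjusted p = 0.000598) and above the arrays with LPS alone. Ripk3 was at 11.59 and 12.15, 2.87-fold lower (-1.52, adjusted p = 0.000491) and within the range of LPS alone. Casp8 was at 14.08 and 14.002 (1.26, adjusted p = 0.000423), Tradd at 13.38 and 13.37 (1.24, adjusted p = 7.18e-06) and Cyld at 7.86 and 8.54 (1.05, adjusted p = 0.0118). The dimmer probe of Cyld rose by 1.02 (adjusted p = 0.00197). The call of the brighter one was lost in 5 of 14 alternatives, with 0.70 without WT LPS+zVAD replicate 2 and 0.71 without WT LPS+zVAD+Nec-1 replicate 2, and an adjusted p of 0.00179 to 0.198. Mlkl, at 14.53 and 14.38, had a log2 fold change of -0.13 (95% confidence interval -0.69 to 0.44). Zbp1 had 0.85 (adjusted p = 0.28) and passed when the group Ifnar1-/- LPS+zVAD+Nec-1 was left out (adjusted p = 0.00752, in a range up to 0.665), while its dimmer probe had 0.11 (adjusted p = 0.937). The dimmer probe of Birc3 rose by 1.68 (adjusted p = 0.00513). The fit of only the 4 arrays compared called 0 members and 0% of all genes, in place of 28.5%, with adjusted p from 0.0598 to 0.159 for these 5. The share of probes above background was 61.4% to 65.4% on the LPS+zVAD arrays, 62.5% to 68.3% with LPS and 55% to 57.6% with LPS+zVAD+Nec-1, and its part in these values was not tested.

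In Ifnar1-/- BMDMs, adding zVAD to LPS raised Ripk1 and Ripk3 and lowered Casp8, 2 members up and 1 down, where 4.58% of all genes were higher and 3.67% lower. Ripk1 went from 11.81 and 11.90 to 12.39 and 12.43 (log2 fold change 0.56, adjusted p = 0.0347), Ripk3 from 11.65 and 11.81 to 12.73 and 12.81 (1.04, adjusted p = 0.0282) and Casp8 from 12.32 and 12.47 to 11.46 and 11.82 (-0.76, adjusted p = 0.0486). In each gene the pairs did not overlap. Each call was lost under the 75th percentile shift. Those of Ripk1 and Casp8 were also lost with the authors' table, without the filter and with only the arrays compared, and that of Casp8 with normexp. The 3 calls rest on all 4 arrays, since each was lost with any of them left out, with log2 fold changes from 0.51 to 0.60 for Ripk1, 0.96 to 1.12 for Ripk3 and -0.58 to -0.93 for Casp8, and adjusted p of up to 0.248, 0.181 and 0.405. Cyld had -0.94 (adjusted p = 0.0587) and passed in 5 of 14 alternatives, among them the slide as a block (adjusted p = 0.017, in a range up to 0.408) and the fit without the group Ifnar1-/- LPS+zVAD+Nec-1 (adjusted p = 0.0367). As a difference between the genotypes, the change with zVAD was more positive in Ifnar1-/- cells for 1 member, Tradd, and less so for 0, against 2.71% and 0.898% of all genes. Tradd had a difference of 0.845 (adjusted p = 0.0268), lost in 10 of 18 alternatives. These included the fits without any 1 of the 8 arrays except WT LPS replicate 1 and WT LPS+zVAD replicate 1, with 0.70 without WT LPS replicate 2 and an adjusted p of 0.00353 to 0.246. For Ripk1 the difference was -0.65 (95% confidence interval -1.12 to -0.18, adjusted p = 0.115), and it passed with the slide as a block (adjusted p = 0.0218, in a range up to 0.39), which raised the members called from 1 to 2. For Ripk3 it was -0.54 (95% confidence interval -1.37 to 0.30).

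**Figure D4:**
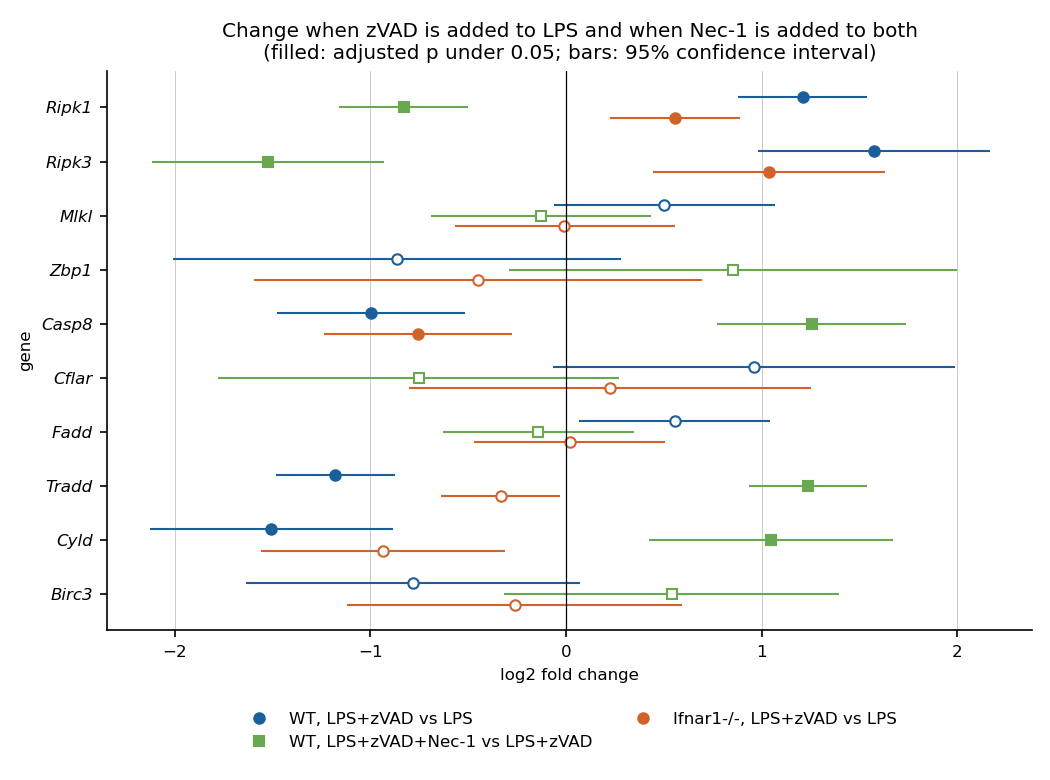
Log2 fold change (x axis) of each member (y axis) when zVAD is added to LPS in WT (blue circles) and Ifnar1-/- (orange circles) BMDMs, and when Nec-1 is added to LPS+zVAD in WT BMDMs (green squares). Bars are 95% confidence intervals from the limma fit and filled symbols have an adjusted p under 0.05. Blue circles and green squares share the WT LPS+zVAD arrays, which enter them with opposite sign. The blue circles and green squares lie on opposite sides of 0 for every member, and both are filled for Ripk1, Ripk3, Casp8, Tradd and Cyld.

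Between the genotypes within 1 treatment, where slide and genotype cannot be told apart, untreated Ifnar1-/- BMDMs had 0 members higher and 2 lower than WT, against 5.38% and 3.35% of all genes. Zbp1 was 33.5-fold lower (log2 fold change -5.07, standard error 0.55, adjusted p = 5.77e-06), in every alternative, and Birc3 was 2.86-fold lower (-1.51, adjusted p = 0.0244). The call of Birc3 was lost with the slide as a random block (adjusted p = 0.0651), and without any 1 of the 4 arrays, with values from -1.29 to -1.74 and an adjusted p of 0.00845 to 0.196 over all alternatives. Of the probes of Cflar, the one at 58770546 to 58770605 was lower by 1.55 (adjusted p = 0.0256), where the brightest had 0.08. Mlkl had -0.87 (adjusted p = 0.051) and passed in 3 of 14 alternatives, one of them the fit in which the group Ifnar1-/- LPS+zVAD+Nec-1 was left out (adjusted p = 0.018, in a range up to 0.41). With LPS+zVAD, Ifnar1-/- cells had 2 members higher, Cyld and Tradd, and 4 lower, Ripk1, Mlkl, Zbp1 and Casp8, against 25.7% and 11.7% of all genes. The log2 fold change was -4.80 for Zbp1 (adjusted p = 2.18e-06), -3.68 for Mlkl (adjusted p = 7.86e-09), -1.15 for Casp8 (adjusted p = 0.000606) and -1.11 for Ripk1 (adjusted p = 2.27e-05). It was 2.27 for Cyld (adjusted p = 9.64e-06), though its dimmer probe had 0.37 (adjusted p = 0.211), and 0.58 for Tradd (adjusted p = 0.00358, lost under 3 of 14 alternatives, in a range up to 0.303). Mlkl was at 10.87 and 10.94 in these Ifnar1-/- cells and at 14.29 and 14.88 in WT. Cflar had -0.84 (adjusted p = 0.192) and passed in 2 of 14 alternatives, one of them the fit without Ifnar1-/- LPS+zVAD+Nec-1 (adjusted p = 0.0252, in a range up to 0.372). Its probe at 58770546 to 58770605 had -2.24 (adjusted p = 0.000352). The probes at 58789994 and 58810660 had -0.84 (adjusted p = 0.416) and -1.20 (adjusted p = 0.0815). Ripk3 was at 12.73 and 12.81 against 12.92 and 13.86 (-0.62, adjusted p = 0.0945), and without WT LPS+zVAD replicate 1 the difference was -1.09 (adjusted p = 0.00824, in a range up to 0.748). The median log2 difference was -0.73 over the members and 0.14 over all genes, and the 75th percentile shift moved the latter to -0.13 and the share of higher genes among those called from 68.8% to 56.5%.

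Over all 16 groups, the range of the group means was 522.8-fold for Zbp1, 31.9-fold for Mlkl, 16.8-fold for Cflar, 14.4-fold for Cyld, 8.68-fold for Casp8, 8.32-fold for Birc3, 4.36-fold for Ripk3, 3.18-fold for Ripk1, 2.94-fold for Tradd and 1.73-fold for Fadd. The ranges are within the brightest probe of each gene, and levels are not compared between genes. The dimmer probe of Cyld ran from 7.61 in WT LPS+zVAD to 9.32 in WT IFNβ. For Fadd the arrays of neighbouring groups in the order of levels overlapped at all 15 steps, from Ifnar1-/- LPS+zVAD at 10.63 down to WT LPS at 9.84. For Zbp1 they overlapped at 7 of the 15. It was highest in WT IFNβ (16.70), apart from the next, followed by WT IFNβ+zVAD, WT IFNβ+zVAD+Nec-1, WT LPS and WT LPS+zVAD+Nec-1, which overlap in sequence, then by WT LPS+zVAD (15.56), WT zVAD (13.63), WT untreated (12.81), Ifnar1-/- LPS (11.22) and Ifnar1-/- LPS+zVAD (10.77), each apart from the next, and by the other Ifnar1-/- groups at 7.67 to 8.80. Mlkl had its 6 highest groups in WT cells with LPS or IFNβ, from 14.08 to 14.68, and the other 10 groups lay between 9.69 and 11.05. Casp8 was highest in the 3 WT groups with IFNβ (14.54 to 14.76), which overlap, then in WT LPS+zVAD+Nec-1 (14.04) and WT LPS (13.78), and was lowest in Ifnar1-/- LPS+zVAD (11.64).

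The levels of Cflar were highest in WT LPS+zVAD (14.47), apart from the next group, WT LPS+zVAD+Nec-1 (13.72), by the brightest probe. By the probe at 58789994 they were highest in WT LPS (14.85), with WT LPS+zVAD at 13.97. Those of Cyld were lowest in WT LPS+zVAD (7.15), apart from WT LPS+zVAD+Nec-1 (8.20), by its brighter probe. Birc3 was highest in WT LPS (12.55), and its 12 highest groups overlapped in sequence down to WT untreated (11.00), which was apart from the 4 lowest, all of them Ifnar1-/-. Ripk1 was lowest in Ifnar1-/- LPS (11.85), the last of 9 groups that overlap in sequence between 11.85 and 12.05. Ripk3 was lowest in WT untreated (11.27), apart from WT zVAD (11.46). Tradd was highest in WT zVAD (13.69) and WT untreated (13.56), each apart from the next.

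By the Pearson correlation of the 16 group means, over 16036 other genes, the genes most like Zbp1 were Trex1 (0.996), Mx1 (0.995) and H2-Q5 (0.993), and those most like Mlkl were Gm16340 (0.994), LOC100040974 (0.993) and Chmp4b (0.991). Casp8 was most like Aldh1l1 (0.988), Themis2 (0.988) and Nat2 (0.986), and Cflar most like Rnf24 (0.986), Gadd45b (0.984) and Ptgs2 (0.984). Birc3 was most like Nfkbia (0.98), Fas (0.976) and Icosl (0.973), and Cyld most like Rabggta (0.978), Mks1 (0.977) and Akr1c13 (0.976). The best values were lower for Tradd, with Ndufaf1 (0.967), Zfp46 (0.956) and Top3b (0.952), for Ripk1, with Rbbp6 (0.958), Clp1 (0.953) and Cyp2t4 (0.953), for Ripk3, with Panct2 (0.934), Otof (0.921) and 1700039I01Rik (0.92), and for Fadd, with Jmjd4 (0.833), Sqstm1 (0.814) and Fam20c (0.793). Within the list, Mlkl and Zbp1 had a correlation of 0.951 over the 16 groups, 0.964 over the 8 WT groups and 0.985 over the 8 Ifnar1-/- groups. Ripk1 and Ripk3 had 0.772 over all and 0.958 over the WT groups, and Ripk1 and Cyld had -0.916. The groups share slides and the values are descriptions.

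Of 52 other genes of the pathway, listed with earlier results of these data known, 50 were tested. With LPS in WT BMDMs, 26 were higher and 5 lower, where 16.3% and 24.8% of all genes were, and with IFNβ 18 and 5, against 13.7% and 21.6%. The cytokine gene Tnf rose 63.1-fold with LPS (log2 fold change 5.98, standard error 1.11, adjusted p = 0.000277) and 14.2-fold with IFNβ (adjusted p = 0.0112), from 10.47 and 10.22 to 16.79 and 15.87 and to 13.88 and 14.48. Tnfaip3, which encodes the ubiquitin editor A20, rose 24.5-fold with LPS (adjusted p = 8.98e-05). Tnfsf10, which encodes the death ligand TRAIL, rose 20.7-fold with LPS (adjusted p = 3.84e-05) and 120.4-fold with IFNβ (adjusted p = 2.2e-07). The RNA sensor Ifih1 rose 11.3-fold with LPS (adjusted p = 0.000232) and 15.9-fold with IFNβ (adjusted p = 8.21e-05), and the receptor gene Tlr3 rose 27.0-fold with IFNβ (adjusted p = 1.87e-07). In Ifnar1-/- BMDMs 19 were higher and 3 lower with LPS, against 10.9% and 13.9% of all genes, and 0 were called with IFNβ, against 0%. The response to LPS was more positive in Ifnar1-/- cells for 0 of them and less so for 7, against 3.03% and 3.6%, among them Tnfsf10 (-5.14 log2, adjusted p = 0.00209) and Tlr3 (-4.02, adjusted p = 0.000644), while for Ifih1 the difference was -0.14 (adjusted p = 0.976). Adding zVAD to LPS raised 4 and lowered 17 in WT cells, against 12.9% and 21.7% of all genes, and raised 1 and lowered 5 in Ifnar1-/- cells, against 4.58% and 3.67%. Adding Nec-1 to LPS+zVAD in WT cells raised 17 and lowered 1, against 18.7% and 9.78%.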

How the data were processed

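RNA of 32 BMDM samples was hybridised to 1-colour Agilent mouse arrays of 55681 probes. The deposited scanner files hold the processed signal, a background-subtracted intensity that the authors obtained with Feature Extraction 11.5.1.1, with probe positions on mm9. The authors' normalized table, deposited as log2 values, was used as an alternative only, with 38406 rows matched to probes. Log2 intensities were quantile-normalized between arrays. Of 33140 probes with a gene symbol, 21465 were kept, being above background on at least 50% of arrays, and the brightest kept probe stood for each of 16037 genes. Between 130 and 499 outlier spots per array were left out, and 0 spots of the members were saturated. The 16 groups of 2 arrays were fitted together with limma 3.58.1 in R 4.3.3, which left 16 residual degrees of freedom. The Benjamini-Hochberg adjustment ran over all genes of a comparison, and a gene was called at an adjusted p under 0.05. Confidence intervals are at 95%.

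The file headers show 4 slides, each with the 8 treatments of 1 genotype and 1 replicate number, so the numbers pair the samples. Deviations from the group means of same-numbered samples correlated above 0.1 in all 28 pairs of WT groups (0.318 to 0.67) and all 28 pairs of Ifnar1-/- groups (0.17 to 0.578). The slide was added as a block (14 residual degrees of freedom). For comparisons between genotypes it was a random block, with a correlation of 0.394 between arrays of the same slide.

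Alternatives were a shift to a common 75th percentile, normexp background correction with an offset of 50, the authors' table, no filter, a filter at 75% of arrays, the mean of a gene's probes, only the arrays compared, the fit without Ifnar1-/- LPS+zVAD+Nec-1, the slide block, a mean-variance trend with robust estimation, and each array left out. The procedure was tested on simulated data. The members and gene lists were chosen with earlier results of these data known. All 10 members are named in the text, with the pathway genes of largest change among those called with LPS and with IFNβ in WT cells. Promoter windows are from RefSeq (GRCm38.p6), whose coordinates are not those of mm9.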

Additional observations from a re-analysis of the deposited data

Results flagged for a closer look

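For the members listed here, the response to a treatment differed between the genotypes by a test of the difference itself, the change in Ifnar1-/- BMDMs minus that in WT BMDMs in limma. For LPS the differences were -2.299 log2 for Mlkl (adjusted p = 0.000994), -1.131 for Casp8 (adjusted p = 0.042) and 1.937 for Cyld (adjusted p = 0.00789). The dimmer probe of Cyld had 0.50 (adjusted p = 0.442). For IFNβ they were -3.967 for Mlkl (adjusted p = 1.42e-06), -3.821 for Zbp1 (adjusted p = 0.00183), -1.654 for Casp8 (adjusted p = 0.00144) and -2.305 for Cflar (adjusted p = 0.0254). For zVAD on top of LPS the difference was 0.845 for Tradd (adjusted p = 0.0268). Of 18 alternatives, the call of Casp8 for LPS was lost in 11 and that of Cyld for LPS in 1. The call of Cflar for IFNβ was lost in 8 of 18 and that of Tradd in 10 of 18.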

How the results depend on the processing

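Of 170 results (10 members in 17 comparisons), 47 were called, of which 21 were called in every alternative run, 26 were lost in at least 1 and 0 reversed in sign. Of the 123 not called, 21 were gained in at least 1. The share of all genes called in a comparison ran from 0%, as for zVAD added to IFNβ in WT cells, to 41.2% for LPS in WT cells. The number of members called moved by over 1.5 times as follows, and the cause was not tested except that a fit of only the arrays compared, or without 1 array, has fewer samples. With only the arrays compared it was 0 for WT LPS against WT IFNβ, for WT LPS+zVAD against WT LPS, for WT LPS+zVAD+Nec-1 against WT LPS+zVAD and for the difference in the zVAD change, where the share of all genes called fell as well, from 20.3% to 4.08%, 34.6% to 10.7%, 28.5% to 0% and 3.6% to 0.0187%. With the authors' table it was 3 for WT LPS+zVAD+Nec-1 against WT LPS+zVAD, where Cyld was lost and Tradd had no value (21% of all genes called), 1 for Ifnar1-/- LPS+zVAD against Ifnar1-/- LPS, 1 for untreated Ifnar1-/- against WT and 0 for the difference in the zVAD change, where Tradd had no value (6.19%, 6.59% and 1.67% of all genes, against 8.25%, 8.73% and 3.6%). Under the 75th percentile shift it was 0 for Ifnar1-/- LPS+zVAD against Ifnar1-/- LPS and 0 for the difference in the zVAD change (6% and 2.21%). Without the filter it was 1 and 0 in these comparisons (4.51% and 1.55%), and with normexp 0 in the latter (3.04%).

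With 1 array left out, the count was 1 for WT LPS against WT IFNβ, 0 for Ifnar1-/- LPS+zVAD against Ifnar1-/- LPS and 1 for untreated Ifnar1-/- against WT, whichever array was left out, and the share of all genes called fell from 20.3% to between 12.5% and 15.9%, from 8.25% to between 2.31% and 4.03% and from 8.73% to between 3.15% and 5.23%. It was 1 for the difference in the LPS change without WT LPS replicate 1 (3.34% of all genes, against 6.63%), and 0 to 2 for that in the zVAD change (0.793% to 6.87%). With the slide as a block, the replicate pairing moved the count to 2 for the difference in the zVAD change and to 1 for untreated Ifnar1-/- against WT (13.4% and 8.96% of all genes), and beside the calls given with their blocked values in the report it changed no other call of a member. Under the 75th percentile shift the share of higher genes among those called with LPS in Ifnar1-/- cells went from 44% to 54%. Signal over background limits the dimmer probe of Zbp1, which was above background on 24 of 32 arrays.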
